A study of Homo sapiens with 4 samples.

Results

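The 10 genes described here encode the chaperonins of the human cell, the barrel-shaped machines that enclose an unfolded protein and let it fold inside. TCP1, CCT2, CCT3, CCT4, CCT5, CCT6A, CCT7 and CCT8 encode the 8 subunits of TRiC (also called CCT), the chaperonin of the cytosol. HSPD1 and HSPE1 encode HSP60 and HSP10, the barrel and the lid of the chaperonin of the mitochondrial matrix. They were taken by symbol from a table of 20263 human Ensembl gene IDs, all 10 were found, and all 10 passed the filter on low counts that left 13612 genes for testing. RNA had been sequenced from MDA-MB-231, an established human cell line from a triple-negative breast cancer, kept for 24 h either with RB-1, named in the series title as a derivative of the CDK4/6 inhibitor ribociclib, or with the solvent DMSO. Each group had 2 libraries, both groups came from the same line and medium, and the labels give no dose of RB-1. Nothing in them tells whether the pair of libraries in a group stems from separate cultures, so p-values cover only the spread between these samples, possibly a technical one.

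TRiC is built of a pair of stacked rings, and each ring holds every one of the subunits once, so the finished complex needs its subunits in equal numbers. Actin and tubulin depend on it to fold, and prefoldin hands such newly made chains over to it. HSP60 and HSP10 do the corresponding work for proteins imported into mitochondria, and their genes lie head to head and share the stretch of DNA between them. Both chaperonins belong to the heat shock proteins, whose genes are known targets of the heat shock factor HSF1.

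Library totals ran from 34122874 to 37754168 counts, and the 10 genes together took 0.206% to 0.316% of them. The largest share was in DMSO replicate 1 and the smallest in DMSO replicate 2, so the controls differed from each other more than the groups did. The markers of the line were present: VIM stood at 3565 to 5423 CPM (counts scaled to one common library size after trimmed-mean normalisation) and CD44 at 416 to 581 CPM. The epithelial cadherin CDH1 had 0 to 2 counts per library. CD3E, a T cell marker, and DCN, a fibroblast marker, had 0 in all 4 libraries, each 1 of 3 genes in its list. The other leukocyte markers were CD68, also known from lysosomes of many cells, at 160 to 340 CPM and PTPRC with 0 to 22 counts, and the other fibroblast markers were COL1A1 with 177 to 265 counts and PDGFRB with 28 to 100. The leukocyte sum was 160 and 340 CPM in DMSO and 220 and 201 CPM in RB-1, and the fibroblast sum 10.4 and 9.89 CPM against 5.80 and 6.01 CPM. The 4 luminal breast markers summed to 11.9 and 23.8 CPM in DMSO and to 2.73 and 3.90 CPM in RB-1. Most of each sum was GATA3, at 9.69 and 21.85 CPM in DMSO and 2.25 and 3.18 CPM in RB-1. PGR had 12 to 58 counts per library and ESR1 4 to 23, and neither ESR1 nor CDH1 passed the filter on low counts. The part of these cell type markers in the results was not tested.

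The start regions of 4 members are shown first, because the outer start region of HSPD1 and that of HSPE1 overlap while the genes differed in direction after RB-1, and because CCT8 and CCT3 had the lowest and the highest change among the TRiC genes, for which they were picked after their values were seen. The sequences are from RefSeq on GRCh38.p14, each with 250 bases before the start site and 50 from it, written along the gene's own strand. RefSeq windows matched 9 of the 10 members, 12 windows in all, and CCT6A had none. Capitals mark heat shock element cores (TTCNNGAA or GAANNTTC, each its own reverse complement), the E-box CACGTG (also its own reverse complement) and CCAAT boxes on either strand. The HSPE1 window is chr2:197500129-197500428 on the plus strand, and the HSPD1 windows, on the minus strand, are chr2:197500225-197500524 at the outer of its 2 start sites and chr2:197499791-197500090 at the inner. The CCT8 window is chr21:29073599-29073898 and the CCT3 window chr1:156338243-156338542, both on the minus strand.
HSPE1: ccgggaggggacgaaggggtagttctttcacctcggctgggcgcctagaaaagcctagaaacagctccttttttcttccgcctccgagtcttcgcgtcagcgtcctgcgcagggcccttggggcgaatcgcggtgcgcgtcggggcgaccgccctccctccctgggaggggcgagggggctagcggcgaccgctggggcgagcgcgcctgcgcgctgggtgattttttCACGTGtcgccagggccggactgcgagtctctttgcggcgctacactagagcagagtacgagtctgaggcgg
HSPD1 outer: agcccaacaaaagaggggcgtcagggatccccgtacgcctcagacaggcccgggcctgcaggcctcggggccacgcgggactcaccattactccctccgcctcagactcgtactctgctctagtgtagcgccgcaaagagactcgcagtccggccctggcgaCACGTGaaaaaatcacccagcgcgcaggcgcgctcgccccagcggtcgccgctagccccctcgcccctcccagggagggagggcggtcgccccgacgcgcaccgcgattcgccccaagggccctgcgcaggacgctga
HSPD1 inner: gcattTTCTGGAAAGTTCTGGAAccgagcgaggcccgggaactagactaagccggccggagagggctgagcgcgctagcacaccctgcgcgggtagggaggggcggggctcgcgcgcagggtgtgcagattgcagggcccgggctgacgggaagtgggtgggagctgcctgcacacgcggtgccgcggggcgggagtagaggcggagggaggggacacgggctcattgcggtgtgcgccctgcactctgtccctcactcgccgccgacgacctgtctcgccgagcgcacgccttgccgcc
CCT8: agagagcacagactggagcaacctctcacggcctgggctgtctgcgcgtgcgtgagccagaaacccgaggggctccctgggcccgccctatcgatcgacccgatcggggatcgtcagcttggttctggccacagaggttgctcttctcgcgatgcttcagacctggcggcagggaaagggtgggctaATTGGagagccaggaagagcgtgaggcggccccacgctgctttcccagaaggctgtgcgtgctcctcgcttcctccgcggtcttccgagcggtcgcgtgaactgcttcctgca
CCT3: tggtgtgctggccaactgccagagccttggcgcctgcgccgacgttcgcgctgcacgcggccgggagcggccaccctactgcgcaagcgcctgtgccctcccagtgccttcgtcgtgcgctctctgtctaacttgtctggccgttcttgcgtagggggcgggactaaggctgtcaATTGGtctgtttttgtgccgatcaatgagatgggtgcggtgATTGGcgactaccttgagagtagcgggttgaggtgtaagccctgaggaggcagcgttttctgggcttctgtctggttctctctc

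The start sites of HSPE1 and HSPD1 lay 105 bases apart on opposite strands at the outer HSPD1 start, where their windows shared 204 bases, and 539 bases apart at the inner one, where the windows shared 0 bases. The E-box stood in the shared stretch, at position -22 from the HSPE1 start, and the outer HSPD1 window held no heat shock core. The inner HSPD1 window held 2 copies of the core TTCTGGAA, at positions -245 and -235 from its start, and a GAAAGTTC between them that overlaps both. TTCNNGAA was found in 7.74% of all 35116 RefSeq windows, GAANNTTC in 6.77%, CACGTG in 7.26%, CCAAT in 34.6% and the GC box GGGCGG, searched on both strands but not marked, in 44.95%. Among the TRiC genes GAANNTTC was present in the window of TCP1 and in 1 of the 2 windows of CCT2, and TTCNNGAA in 1 of the 2 windows of CCT4. The windows of CCT8 and CCT3 held CCAAT boxes, 1 and 2 of them, and neither held a heat shock core. CCAAT boxes also stood in the window of TCP1 and in 1 of the 2 windows of CCT2. The factors behind these letters were not measured, so a match or its absence describes the sequence only.

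After RB-1 the log2 fold changes of the chaperonin genes differed in sign, 6 below 0 and 4 above. CCT8, CCT2, CCT6A and HSPD1 fell by 1.78-fold to 2.55-fold, HSPE1 rose 1.83-fold, and the other 5 did not pass (edgeR's quasi-likelihood test, Benjamini-Hochberg adjusted p under 0.05). Over all tested genes 28.8% passed, 16.1% lower and 12.8% higher, against 4 lower and 1 higher of the 10 here. The 1 higher, HSPE1, did not pass with the correction for transcript length and GC content described below, which left 3 lower and 0 higher. The RB-1 values lay wholly below the DMSO values in 5 members and wholly above in 1, where 69.7% of all tested genes showed no overlap, 34.3% lower and 35.3% higher. The median log2 fold change was -0.49 over the 8 TRiC genes and 0.01 over all genes. In bulk RNA, less RNA per cell and fewer cells holding it cannot be told apart.

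**Figure D1:**
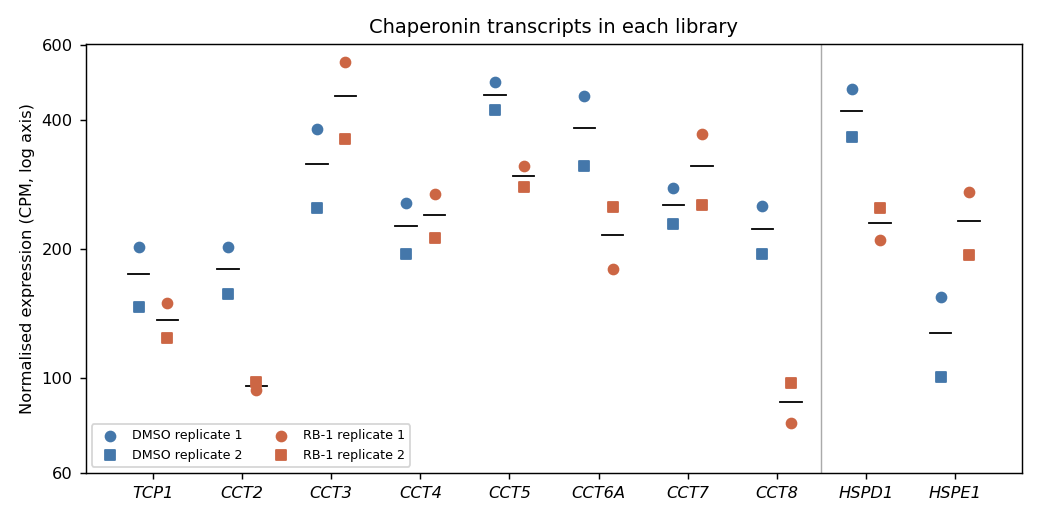
Normalised expression (CPM, log axis) of the 8 TRiC genes and, right of the line, the 2 mitochondrial chaperonin genes, with each library as a point and each group mean (n = 2) as a bar. CCT2, CCT5, CCT6A, CCT8 and HSPD1 have both RB-1 points below both DMSO points, and HSPE1 has them above.

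Of the TRiC subunits CCT8, the theta subunit, had the largest change. CCT8 (ENSG00000156261) stood at 253 and 195 CPM in DMSO replicates 1 and 2 and at 78.3 and 97.2 CPM in RB-1 replicates 1 and 2. The groups did not overlap, and the higher RB-1 library held less than the lower DMSO library. The mean fell from 224 ± 41.1 to 87.8 ± 13.4 CPM (SD, n = 2 each; log2 fold change -1.35 ± 0.25 SE, edgeR adjusted p = 0.00451). CCT8 was the only member whose call stood in all 13 alternatives that were run, with log2 fold changes from -1.51 to -1.15 and adjusted p from 4.42e-05 to 0.0386.

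CCT2 encodes the beta subunit. CCT2 (ENSG00000166226) had 202 and 158 CPM in the DMSO libraries and 93.6 and 97.9 CPM in the RB-1 libraries. The RB-1 libraries lay close together and both were below the controls. It fell 1.88-fold (log2 fold change -0.91 ± 0.24 SE, edgeR adjusted p = 0.0196). It did not pass when DMSO replicate 1 was left out (-0.72, adjusted p = 0.160), nor with RB-1 replicate 1 left out (-0.87, adjusted p = 0.0811). Over all alternatives its adjusted p ran from 0.00632 to 0.160.

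CCT6A, the zeta subunit, was less even. CCT6A (ENSG00000146731) had 455 and 313 CPM in DMSO and 180 and 252 CPM in RB-1. The groups did not overlap, but the libraries of each group lay further apart than those of CCT2 in RB-1. It fell 1.78-fold (log2 fold change -0.83 ± 0.27 SE, edgeR adjusted p = 0.0417). It was -0.54 (adjusted p = 0.286) once DMSO replicate 1 was left out and -0.60 (adjusted p = 0.224) once RB-1 replicate 1 was. Over all alternatives its adjusted p ran from 0.0236 to 0.286. CCT5, the epsilon subunit, had 492 and 424 CPM in DMSO and 313 and 280 CPM in RB-1, and without overlap it still missed the threshold (log2 fold change -0.63 ± 0.23 SE, edgeR adjusted p = 0.0594). CCT5 is uncertain, since an antisense gene lies over 30.1% of its exon bases.

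The remaining 4 subunits overlapped between the groups. TCP1, the alpha subunit that gave the complex its name, had 202 and 147 CPM in DMSO and 150 and 124 CPM in RB-1 (log2 fold change -0.35 ± 0.25 SE, edgeR adjusted p = 0.320). CCT4, the delta subunit, had 257 and 195 CPM against 270 and 212 CPM in RB-1 (0.09 ± 0.25, adjusted p = 0.808), and its sign turned with DMSO replicate 2 (-0.07) or RB-1 replicate 1 (-0.084) left out. In both genes replicate 1 was the higher library of each group. CCT7, the eta subunit, had 278 and 229 CPM against 372 and 254 CPM in RB-1 (0.30 ± 0.26, adjusted p = 0.400). CCT3, the gamma subunit, had 382 and 250 CPM against 548 and 363 CPM in RB-1 (0.53 ± 0.29, adjusted p = 0.189). RB-1 replicate 1 was the highest library for both CCT7 and CCT3, and their second RB-1 library lay inside the range of the controls.

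The 2 mitochondrial chaperonin genes were called in opposite directions. HSPD1 (ENSG00000144381) had 475 and 366 CPM in DMSO and 210 and 250 CPM in RB-1. HSPE1 (ENSG00000115541) had 154 and 101 CPM in DMSO and 272 and 193 CPM in RB-1. For neither gene did the groups overlap. HSPD1 fell from 421 ± 76.9 to 230 ± 28.1 CPM (SD, n = 2 each; log2 fold change -0.87 ± 0.24 SE, edgeR adjusted p = 0.0220). HSPE1 rose from 127 ± 38.01 to 233 ± 55.8 CPM (0.87 ± 0.28, adjusted p = 0.0420).

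Within each library, the log2 ratio of HSPD1 to HSPE1 was 1.62 and 1.86 in DMSO and -0.38 and 0.37 in RB-1. Its mean was lower by 1.75 on the log2 scale in RB-1 and the groups did not overlap; the exact two-sided permutation test gave p = 0.333, the smallest that 2 against 2 libraries allow. Leaving out RB-1 replicate 1 ended the calls of both genes, HSPD1 at -0.74 (adjusted p = 0.123) and HSPE1 at 0.61 (adjusted p = 0.214). HSPD1 was also lost without DMSO replicate 1 (-0.67, adjusted p = 0.155), and HSPE1 without DMSO replicate 2 (0.62, adjusted p = 0.270). Over all alternatives the adjusted p ran from 0.0102 to 0.155 for HSPD1 and from 0.0158 to 0.284 for HSPE1. HSPD1 and HSPE1 overlap in annotated exons on opposite strands, 281 bases or 14.2% of those of HSPE1, and no source at hand tells whether reads were counted by strand. The readthrough gene HSPE1-MOB4, which shares 9.71% of the HSPE1 exon bases, had only 55 to 307 counts per library against 3295 to 10275 for HSPE1.

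Direction in these genes went with transcript composition. The 6 members with a log2 fold change below 0 had principal transcripts of 43.1% to 44.6% GC, while HSPE1, CCT3 and CCT7 had 50.2%, 51.2% and 51.8%, and CCT4, near 0, had 44.7%. HSPE1 also had the shortest transcript, 950 bases, where HSPD1 had 2455. The same trend ran through the whole table: the median log2 fold change was -0.45 in the quartile of genes with the lowest GC content and 0.29 in that with the highest, and 0.46 and -0.46 in the quartiles with the shortest and the longest transcripts. The libraries of 1 group differed along GC content as well, with RB-1 replicate 2 above replicate 1 by a median of 0.46 in the lowest quartile and a median of -0.26 in the highest. DMSO replicate 2 less replicate 1 ran the other way, with medians of -0.28 and 0.055.

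**Figure D2:**
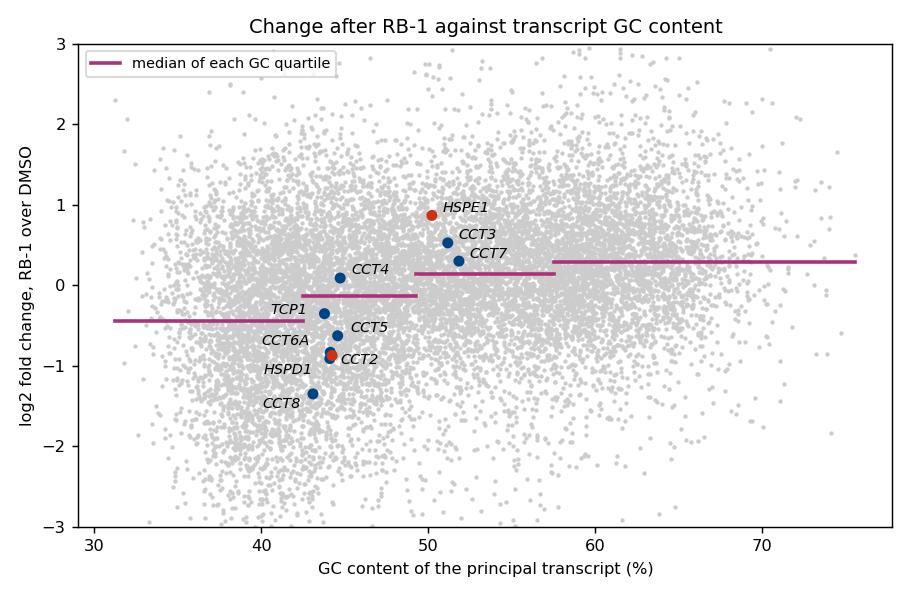
Log2 fold change (RB-1 over DMSO) against GC content of the principal transcript (%) for 13596 tested genes in grey, of which 223 lie outside the axis limit of 3, with TRiC genes in blue, HSPD1 and HSPE1 in red, and the median of each GC quartile as a line. HSPE1, CCT3 and CCT7, at 50.2% to 51.8% GC, lie above 0, and CCT8, at 43.1%, is the lowest.

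A fit with a correction for transcript length and GC content in each library kept 3 of the 5 calls. CCT8 fell by 1.25 on the log2 scale (SE 0.19, edgeR adjusted p = 0.00405), CCT2 by 0.86 (SE 0.18, adjusted p = 0.0120) and HSPD1 by 0.72 (SE 0.18, adjusted p = 0.0226). CCT6A was at -0.63 (adjusted p = 0.0598) and no longer passed. HSPE1 was at 0.35 ± 0.24 (adjusted p = 0.284), CCT3 at 0.30 ± 0.27 and CCT7 at -0.0049 ± 0.21. With this correction 15.7% of all genes fell and 16.6% rose, against 3 and 0 of the 10 members. The HSPD1 to HSPE1 log2 ratio was then 0.84 and 1.35 in DMSO and 0.71 and 0.57 in RB-1, a difference of -0.45 with no overlap (exact permutation p = 0.333). CCT8, CCT2 and HSPD1 passed with and without the correction, and HSPE1 only without it.

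**Figure D3:**
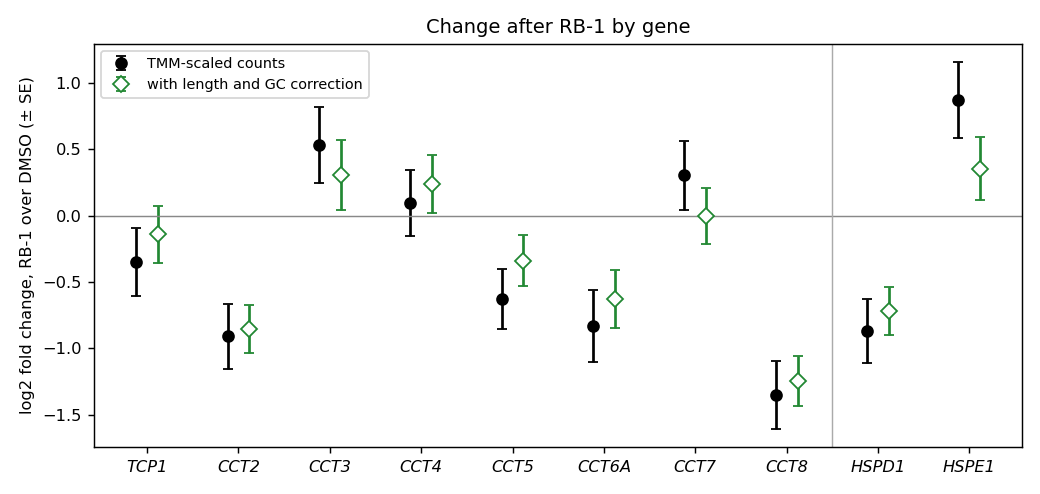
Log2 fold change (RB-1 over DMSO) of each member with its SE, from counts scaled by trimmed-mean factors (filled circles) and with a correction for transcript length and GC content (open diamonds). HSPE1 moves from 0.87 to 0.35 with the correction and CCT8 from -1.35 to -1.25.

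On a scale of CPM per kilobase of the principal transcript, on which genes can be compared, the 8 TRiC transcripts were closer to each other in DMSO than in RB-1. The highest stood above the lowest by 2.19-fold and 2.03-fold in the DMSO libraries (CCT3 over TCP1, CCT7 over TCP1) and by 6.52-fold and 3.52-fold in the RB-1 libraries (CCT3 over CCT8, CCT3 over CCT2). The share of CCT8 in the summed TRiC level per kilobase was 12.2% and 12.5% in DMSO and 4.59% and 6.93% in RB-1. The share of CCT3 was 17.2% and 14.95% in DMSO and 29.9% and 24.1% in RB-1. Lack of overlap was not particular to this pair, since the shares of all 8 genes did not overlap between the groups. Those of CCT3, CCT4 and CCT7 were higher in RB-1, and those of TCP1, CCT2, CCT5, CCT6A and CCT8 lower. These shares carry the trend with GC content described above, and its part in them was not tested.

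**Figure D4:**
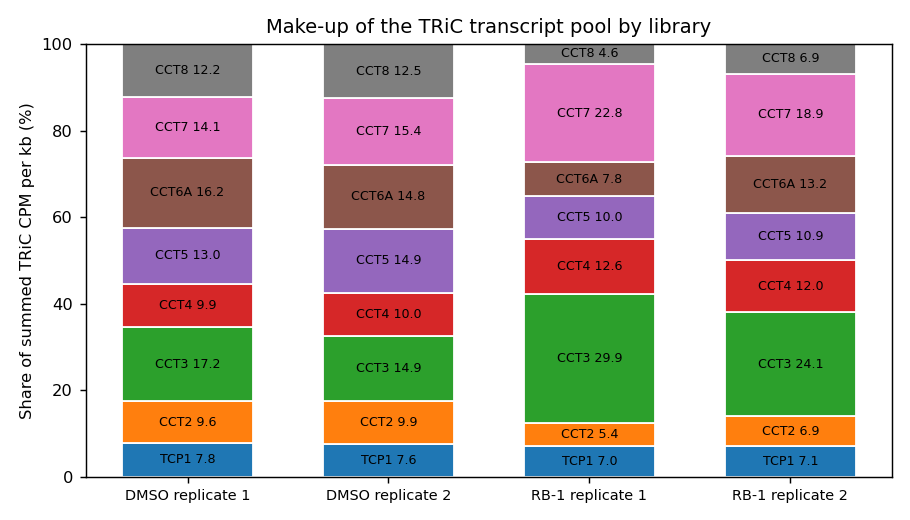
Share (%) of each subunit gene in the summed CPM per kilobase of the 8 TRiC genes, for each library. The segments of CCT3, CCT4 and CCT7 are taller in both RB-1 libraries than in both DMSO libraries. Those of TCP1, CCT2, CCT5, CCT6A and CCT8 are shorter.

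The mean levels per kilobase in DMSO ran HSPD1 (171), CCT3 (147), CCT6A (141), HSPE1 (134), CCT7 (132), CCT5 (125), CCT8 (112), CCT4 (89.7), CCT2 (88.1) and TCP1 (69.9). Each gene overlapped its neighbours in that order over the 2 libraries. In RB-1 it ran HSPE1 (245), CCT3 (212), CCT7 (163), CCT4 (95.6), HSPD1 (93.6), CCT5 (80.7), CCT6A (79.3), TCP1 (54.8), CCT2 (46.9) and CCT8 (43.8). HSPE1 lay above CCT3 and CCT3 above CCT7 within each RB-1 library, though their values overlap between libraries, and all 3 lay above the other 7 genes. Among those 7, neighbours overlapped except HSPD1 over CCT5, CCT6A over TCP1 and TCP1 over CCT2. Levels per kilobase depend on which transcript is taken as the principal one, above all for CCT5, whose chosen transcript is the longest of the 10 at 3675 bases.

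The 2 mitochondrial genes together, as a mean log2 CPM less that of the 8 TRiC genes, stood at -0.14 and -0.23 in DMSO and at 0.21 and 0.22 in RB-1. The difference was 0.40 without overlap (exact permutation p = 0.333, the smallest possible). With the length and GC correction it was -0.06 with overlap (exact permutation p = 1), so its direction depended on that correction. Summed over the 8 genes, TRiC transcripts had 2521 and 1909 CPM in DMSO and 2004 and 1679 CPM in RB-1, which overlap.

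The 9 genes of prefoldin and the phosducin-like proteins, which deliver clients to TRiC or tune it, had 3 that rose and 6 that did not pass. Of all tested genes 12.8% rose and 16.1% fell. This list had a median log2 fold change of 0.42. None fell by edgeR, DESeq2 or limma-voom, and 0 were lower at an unadjusted p under 0.05. The 3 were prefoldin subunits. PFDN5 had 58.4 and 50.9 CPM in DMSO and 166 and 101 CPM in RB-1, a 2.45-fold rise (edgeR adjusted p = 0.00937). PFDN4 and PFDN6 rose 2.27-fold and 2.24-fold, and PFDN6 is uncertain because 24.5% of its exon bases overlap RGL2 on the opposite strand. Leaving out DMSO replicate 2 left 0 that rose, and leaving out RB-1 replicate 1 left 1. The groups did not overlap for PFDN1, PFDN4, PFDN5, PFDN6, VBP1, PDCL and TXNDC9 (higher in RB-1) and for PDCL3 (lower). Over all tested genes 69.7% showed no overlap, 35.3% higher and 34.3% lower. With the length and GC correction 4 rose, where 16.6% of all genes rose. TXNDC9 was 1 of the 4 (0.66, adjusted p = 0.0485, over alternatives 0.0485 to 0.689) and PFDN6 was not (0.62, adjusted p = 0.0686, over alternatives 0.00172 to 0.136). Without the correction TXNDC9, a thioredoxin-like partner of TRiC, was at 0.57 (adjusted p = 0.189).

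Among 22 genes whose proteins TRiC is known to fold or bind, 2 rose and 20 did not pass. The shares over all tested genes were 12.8% higher and 16.1% lower. The median of the clients was -0.03. None fell in the main edgeR fit or by limma-voom and 2 by DESeq2, and 2 were lower at an unadjusted p under 0.05. TUBB, a beta tubulin, had 2649 and 2669 CPM in DMSO and 5353 and 4672 CPM in RB-1 (log2 fold change 0.91 ± 0.22 SE, edgeR adjusted p = 0.0136), with 16.02% of its exon bases under an antisense gene. VHL, a subunit of the ubiquitin ligase that marks hypoxia factors, rose 1.89-fold. Neither passed when either DMSO library or RB-1 replicate 1 was left out (0 clients higher each), and 5 clients passed as higher with RB-1 replicate 2 left out. PLK1, a mitotic kinase, was at -0.73 (adjusted p = 0.0502) and TUBG1, gamma tubulin, at -0.71 (adjusted p = 0.0517). PLK1 passed as lower in edgeR with RLE factors (adjusted p = 0.0486) and with the legacy fit (adjusted p = 0.0484). With the length and GC correction 6 clients fell, PLK1 and TUBG1 included, where 15.7% of all genes fell. Upper-quartile factors and library totals alone each gave 5 higher. ACTB, the main cytoplasmic actin and a client named outside the rule, overlapped between the groups at 3439 to 3976 CPM in DMSO and 3659 to 4266 CPM in RB-1. The actin ACTG1, also outside the rule, had 1170 and 1346 CPM in DMSO and 897 and 1050 CPM in RB-1, without overlap. ACTG1 did not pass (log2 fold change -0.37, edgeR adjusted p = 0.233) but fell with the length and GC correction (-0.64, adjusted p = 0.0459).

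The tubulin folding cofactors act after TRiC has released tubulin. None of the 5 tested passed by edgeR or limma-voom and 1, TBCA, rose by DESeq2, while 3 were higher and 0 lower at an unadjusted p under 0.05. The log2 fold changes, with adjusted p from edgeR, were TBCA at 0.67 (adjusted p = 0.0557), TBCB at 0.80 (0.0726), TBCC at 0.69 (0.0818) and TBCD at -0.35 (0.326). With the length and GC correction 1, TBCA, rose (0.60, adjusted p = 0.0487, over alternatives 0.0344 to 0.242), where 16.6% of all genes rose. TBCB was then at 0.22 (adjusted p = 0.444), TBCC at 0.25 (0.338) and TBCD at -0.0064 (0.986). Upper-quartile factors gave 3 that rose, and library totals alone and leaving out RB-1 replicate 2 gave 2 each. TBCE was not analysed here. The chaperonin relatives BBS10, BBS12 and MKKS, which help assemble the BBSome of the cilium, and CCT6B, the testis form of the zeta subunit, did not pass by edgeR, DESeq2 or limma-voom, and 0 had an unadjusted p under 0.05. BBS10 had 29.6 and 25.4 CPM in DMSO and 11.8 and 22.1 CPM in RB-1, and passed only with RB-1 replicate 2 left out (-1.22, adjusted p = 0.0268, over alternatives up to 0.492). BBS12 was at -0.69 (adjusted p = 0.184) and MKKS at -0.07 (0.872), with a sign that turned under 5 alternatives. CCT6B had 25 to 64 counts per library, where CCT6A had 6784 to 15883.

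Around HSP60 and HSP10, 15 chaperones and proteases of the mitochondrial matrix and inner membrane had 2 that rose, 1 that fell and 12 that did not pass, with a median of -0.07. HSPA9, the matrix HSP70 that passes imported chains to HSP60, fell with HSPD1, from 546 and 502 CPM to 233 and 294 CPM (log2 fold change -0.99 ± 0.23 SE, edgeR adjusted p = 0.0113). LONP1, the Lon protease, rose 1.70-fold and HTRA2, a protease of the intermembrane space, 1.90-fold. HTRA2 is uncertain because 20.8% and 16.1% of its exon bases lie under LOXL3 and AUP1 on the opposite strand. GRPEL2, a nucleotide exchange factor of HSPA9, was at 0.75 (adjusted p = 0.0672). No rise passed (0 genes) with either DMSO library or RB-1 replicate 1 left out, while 4 did with RB-1 replicate 2 left out. HSPA9 missed the threshold with DMSO replicate 1 left out (-0.93, adjusted p = 0.0525) and with RB-1 replicate 1 left out (-0.83, adjusted p = 0.0811), in a range over alternatives of 0.00222 to 0.0811. With the length and GC correction LONP1 (0.57, adjusted p = 0.0501, over alternatives 0.0192 to 0.201) and HTRA2 (0.62, adjusted p = 0.0509, over alternatives 0.0116 to 0.224) no longer passed. The 1 that rose with it was GRPEL2 (1.29, adjusted p = 0.0061, over alternatives 0.0061 to 0.388), and 4 fell, HSPA9 at -0.54 (adjusted p = 0.0428) with TRAP1, CLPP and SPG7. With this correction 16.6% of all genes rose and 15.7% fell. TRAP1 is uncertain, with 29.3% of its exon bases under DNASE1 on the opposite strand.

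Of 12 genes of mitochondrial protein import, which brings HSPD1 and HSPE1 proteins to their place, 2 rose and 10 did not pass (median 0.45). Among all tested genes 12.8% rose and 16.1% fell. In the import list 0 fell by edgeR, DESeq2, limma-voom or at an unadjusted p under 0.05. PAM16, a regulator of the import motor, had 4.64 and 4.27 CPM in DMSO and 23.1 and 12.9 CPM in RB-1 (log2 fold change 2.01 ± 0.37 SE, edgeR adjusted p = 0.00384), and was at 1.33 with the length and GC correction (adjusted p = 0.00714, over alternatives 5.4e-06 to 0.0292). PAM16 is uncertain, since 21.9% of its exon bases are shared with the readthrough gene CORO7-PAM16, which had 281 and 374 counts in DMSO and 4 and 3 in RB-1. Summed, both rows had 12.7 and 15.7 CPM in DMSO and 23.2 and 12.9 CPM in RB-1, which overlap. DNAJC19, another part of the motor, rose 2.19-fold, and the receptors TOMM22 (0.68, adjusted p = 0.126) and TOMM20 (0.49, adjusted p = 0.134) did not pass. TOMM20 passed with the length and GC correction (0.92, adjusted p = 0.0117, over alternatives up to 0.497). Only 1 rose with DMSO replicate 2 or RB-1 replicate 1 left out or with no count filter, and 4 did with RB-1 replicate 2 left out. Of 4 transcription factors of mitochondrial and integrated stress, DDIT3, CEBPB and ATF4 rose by log2 fold changes of 1.99, 1.48 and 1.02, while 0 fell by edgeR or limma-voom, 1 by DESeq2 and 1 was lower at an unadjusted p under 0.05. ATF4 did not pass with DMSO replicate 2 left out (0.97, adjusted p = 0.0572, over alternatives 0.000996 to 0.0572). ATF5 had 28.2 and 72.1 CPM in DMSO and 26.3 and 21.8 CPM in RB-1, so its log2 fold change of -1.06 (adjusted p = 0.0837) rests on DMSO replicate 2. It was -0.21 with that library left out and -1.58 (adjusted p = 0.0167) with DMSO replicate 1 left out. ATF5 passed with DESeq2 (adjusted p = 0.0317) and with the length and GC correction (-1.42, adjusted p = 0.0454), in a range of 0.0167 to 0.799. DDIT3 is uncertain, with 27.2% of its exon bases under MARS on the opposite strand. The same holds for ATF5, with 21.2% under NUP62.

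Of 20 heat shock factors and chaperones, cytosolic apart from SERPINH1 of the endoplasmic reticulum, 11 fell and 9 did not pass. The median was -0.81, and 16.1% of all tested genes fell. SERPINH1 was 1 of the 11 (log2 fold change -1.16, edgeR adjusted p = 0.0326). In this list 0 rose by edgeR, DESeq2, limma-voom or at an unadjusted p under 0.05. The length and GC correction gave 13 falls with a median of -0.999, where 15.7% of all genes fell. HSP90AA1, an HSP90 of the cytosol, HSPH1, CHORDC1 and the HSP40 DNAJA1 had log2 fold changes of -3.16, -2.87, -2.58 and -1.96. CCT8, the member with the largest fall, was at -1.35. HSF1 itself, named outside the rule, had 121 and 170 CPM in DMSO and 98.5 and 89.8 CPM in RB-1, without overlap. Its log2 fold change of -0.62 did not pass (adjusted p = 0.0921), and with the length and GC correction it was -0.99 and passed (adjusted p = 0.0112). The falls numbered 5 with library totals alone, 6 with DMSO replicate 2 left out and 7 with any other library left out. Both lists were compared by their counts and medians only, and the difference between them was not tested.

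**Figure D5:**
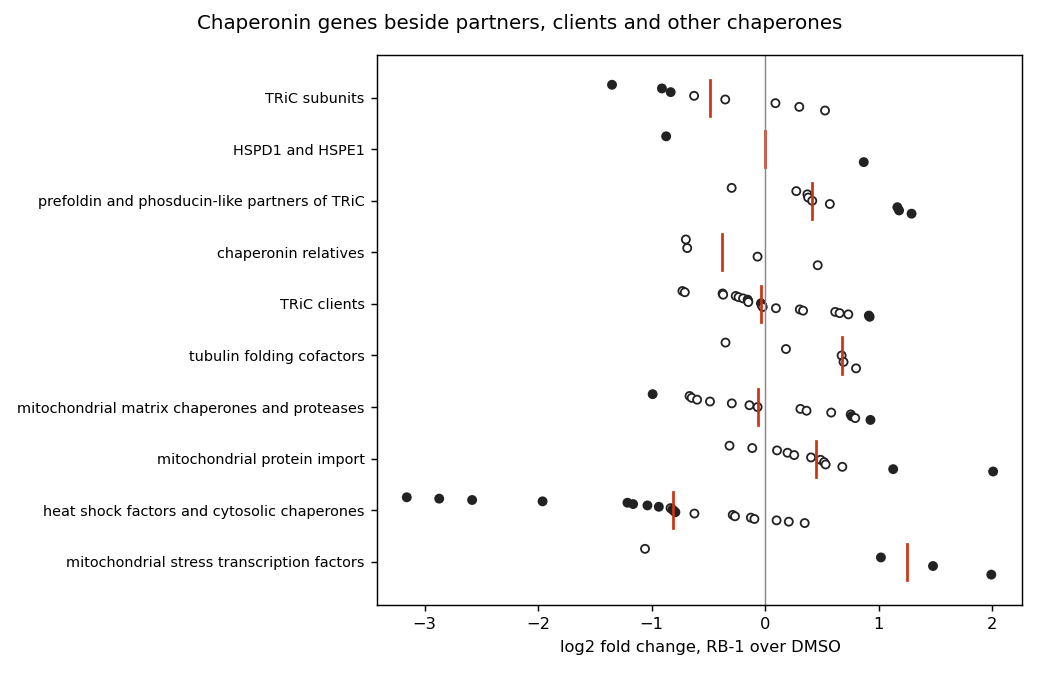
Log2 fold change (RB-1 over DMSO) of each tested gene in the chaperonin groups and the 8 companion lists, filled where the adjusted p is under 0.05, with the median of each group as a red line. TRiC genes spread from -1.35 to 0.53, and cytosolic chaperones reach -3.16.

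Genes with the profile most like a member were sought among those with a mean of at least 50 CPM, by the mean absolute difference over the 4 libraries in log2 CPM centred on each gene's mean. For HSPD1 they were NBPF19 (0.012), NBPF10 (0.018) and FUT8 (0.031), where the 2 NBPF genes are near-identical copies with uncertain counts. With the length and GC correction these 3 were at -0.22, -0.08 and -0.28 and HSPD1 at -0.72. For the mean of the 8 TRiC genes they were IL4R (0.021), HEXIM1 (0.039) and PTMA (0.054). The profiles share the same 4 libraries, and the likeness is a description without a test.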

How the data were processed

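The deposited table holds raw counts per human Ensembl gene ID, 1 column per library, with no pooling, as the authors deposited them. Neither aligner nor counting tool nor strand setting is named by the labels or the file header. The submitters' processing notes list the genome builds GRCm38 and mm10, which are mouse builds, while every ID is human, so coordinates are printed only for RefSeq sequences on their own build. Symbols matched 20148 of 20263 IDs. In edgeR 4.0.16 under R 4.3.3, filterByExpr left 13612 genes, library sizes were scaled by TMM, and a robust quasi-likelihood fit on all 4 libraries (glmQLFit, glmQLFTest) tested the treatment two-sided. P-values were adjusted by Benjamini and Hochberg's method over all tested genes, with a threshold of 0.05. The standard error is the log2 fold change divided by the square root of F. With 2 residual degrees of freedom per gene, the common coefficient of biological variation came to 0.251. Replicates differed by far more than sampling noise (chi-square per degree of freedom 256.6 in DMSO and 128 in RB-1), so no pair was treated as copies of 1 library. This does not tell whether they are separate cultures. Log2 CPM used a prior count of 2.

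Transcript length and GC content came from the principal transcript in GENCODE 29, with values for 99.9% of tested genes. The correction fitted each library's deviation in log2 CPM on splines of both (5 degrees of freedom each) and entered it as an offset. Exon overlaps are from the same annotation. RefSeq names 66 pseudogenes of the members, 28 of HSPE1 and 22 of HSPD1, and none has a row of its own in the table, so reads they share with the members could have been counted there.

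The members and the 8 companion lists (93 entries) were chosen with earlier results of these data known. Named genes are all members, the up to 4 genes with the smallest p in each companion list, and the 3 most like HSPD1 or the TRiC mean. ACTB, HSF1 and other list genes named beyond these, and neighbours, are outside the rule. The fit was tested on simulated data. The alternatives used scaling by RLE, by upper quartile or by library totals only, all genes without the count filter, DESeq2 1.42.0, limma-voom (limma 3.58.1), the replicate block, the length and GC correction, leaving out each library, and, chosen after seeing the data, edgeR's legacy fit.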

Additional observations from a re-analysis of the deposited data

How the results depend on the processing

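Of the 10 members, CCT8, CCT3, CCT5 and TCP1 kept their direction and their side of the threshold in all 13 alternatives. CCT2 and HSPD1 did so in 10, HSPE1 in 9 and CCT6A in 7, always with the same sign. The fallen members numbered 4 with RLE factors, DESeq2, limma-voom and the legacy fit, 3 with upper-quartile factors, no count filter and the length and GC correction, and 1 with library totals alone. Library totals shifted the median log2 fold change of all genes by 0.20 and upper-quartile factors by 0.11, so the falls are relative to these scalings. HSPE1 was not called (0 members higher) with no count filter (0.87, adjusted p = 0.0587) or the length and GC correction. Leaving out 1 library gave 0 to 1 members higher and 1 to 4 lower, and 522 to 1955 genes higher and 1065 to 2443 lower in all; library totals alone gave 1400 lower against 2189. The sign turned for CCT4 with DMSO replicate 2 (-0.07) or RB-1 replicate 1 (-0.084) left out, of -0.084 to 0.30 over the 4 libraries left out, and for CCT7 with the length and GC correction (-0.0049). It turned for CCT6B with RB-1 replicate 2 left out (-0.37 to 0.99 over the 4). MKKS, -0.07 in the report, was at 0.042 with upper-quartile factors, 0.11 with library totals alone, 0.77 with the length and GC correction, and -0.27 to 0.19 with 1 library left out. The mitochondrial to TRiC ratio reversed with the length and GC correction (-0.061). For the calls lost and the signs turned above, the cause was not tested. With the replicate number as a block, 1 member was higher and 4 lower, as without it, and 1741 and 2314 genes in all. The labels do not say that numbers pair cultures, and same-numbered libraries did not deviate together (r = -0.096 over 13612 genes). CCT5, 1.54-fold lower without overlap, did not pass with 2 libraries per group.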
